A study of Mus musculus with 21 samples.

Results

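Mammary tumours of mice carrying MMTV-LPA2 were compared with mammary tumours of mice carrying MMTV-LPA1, at 5 tumours from 5 mice on each side. These 10 tumours were chosen by the tissue label, out of 20 tumours that also cover MMTV-ATX and MMTV-LPA3. The MMTV promoter drives a transgene mainly in mammary epithelium, and no tumour or gland without a transgene was on the arrays. The labels name no treatment, and the mouse strain, age and the species of the transgene sequences were not given in the sources used here.

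LPA1 and LPA2 are G protein-coupled receptors for lysophosphatidic acid (LPA), a lipid signal that autotaxin makes outside the cell from lysophosphatidylcholine. Both receptors couple to the Gi, Gq and G12/13 families of G proteins, and through these to calcium release and MAP kinases. LPA2 differs from LPA1 in its C-terminal tail, which also binds PDZ proteins of the NHERF family, the LIM protein TRIP6 and the apoptosis protein SIVA1. The question was which genes differ between tumours that arise with one receptor and tumours that arise with the other.

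Each value is a log2 ratio of the tumour's RNA (Cy5) to whole-mouse total RNA (Cy3) on the same Agilent 2-colour array, so 0 means the level of the whole-mouse pool and 1 a doubling of it on that gene's own scale. Slide numbers were assigned here to the slide codes in the array titles. LPA1 tumours 3 and 4 and LPA2 tumours 3 and 4 were on slides 2 to 4 and 7, which with slide 1 are called the first slide set. LPA1 tumours 1, 2 and 5 and LPA2 tumours 1, 2 and 5 were on slides 5 and 6, the second slide set, which is therefore balanced between the genotypes. The spread of log2 ratios over features (SD) was 1.232 to 1.432 on the 5 arrays of these tumours in the first set and 0.836 to 0.903 on the 6 in the second. LPA1 mouse 4 was on 2 arrays, which were averaged and counted as LPA1 tumour 4. The labels name the mouse and do not say whether both arrays had the same tumour piece or RNA. Those 2 arrays correlated at r = 0.765 over genes, with a median absolute difference of 0.399 per gene. This is the only measure here of the difference between arrays without a change of mouse. The number of arrays limits the precision.

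All 10 tumours carried epithelial RNA, as their tissue label states. The median log2 ratio over 17 luminal epithelial markers was 0.35 to 1.95 in the LPA1 tumours and 0.74 to 1.61 in the LPA2 tumours. The median over 15 milk genes was also above 0 in each of the 10. Liver genes, which mammary tissue lacks and the whole-mouse pool contains, had medians of −4.36 to −0.97 in the LPA1 tumours and −3.34 to −0.90 in the LPA2 tumours. These medians split by slide set, at −4.36 to −2.53 in the first-set tumours and −1.15 to −0.90 in the second-set tumours of both genotypes. Whether ratios of the slide sets share a scale was not tested, so a smaller second-set difference does not show a smaller difference in RNA.

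No gene separated LPA2 from LPA1 tumours at an adjusted p under 0.05. Of 19069 genes tested with limma, 0 were called (0%), and the smallest Benjamini-Hochberg adjusted p was 0.125, for Gm14461. The gene with the next smallest p, Slfn9, had an adjusted p of 0.972 by the same test. At an unadjusted p under 0.05 there were 844 genes (4.43% of those tested), 428 of them higher in LPA2 tumours (2.24%) and 416 lower (2.18%). In the same fit the other 5 pairs of genotypes, which share these samples in part, had 1180 to 2505 genes past that unadjusted level. Those pairs are not balanced over the slide sets. No ATX tumour and, of the LPA3 tumours, only tumour 4 was in the second set. The counts therefore do not rank the genotypes by likeness. The difference was above 0 for 9839 genes (51.6%), at least 1 in size for 664 (3.48%) and at least 2 in size for 29 (0.152%).

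The design could bound the difference of many genes without calling any. The standard error of a gene's LPA2 minus LPA1 difference had a median of 0.33 on the log2 scale, and its 10th and 90th percentiles were 0.204 and 0.611. For 10192 genes (53.4%) the 95% interval of the difference lay wholly between −1 and 1, within a doubling or halving of the deposited ratio. Ratios had a narrower spread on the second slide set, and 2533 to 3916 features of each of these arrays were exactly 0. Such an interval therefore bounds the deposited ratio and not the RNA level. For the remaining genes a difference of that size was not bounded, and absence of a call does not show equal levels.

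The slide sets gave differences that had little in common. Across 19069 genes the first-set difference and the second-set difference correlated at r = 0.018, as a description over genes that are not independent, and 9585 genes (50.3%) had the same sign in both sets. The median absolute difference was 0.431 in the first set and 0.201 in the second. Over the 18957 genes with a value in all 10 tumours, the genotype held 9.67% of the summed squares around the gene means, the slide set 24.9%, and the remaining 65.4% held both the spread among tumours and any genotype difference that varied between slide sets.

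Tumours of the same genotype and tumours of different genotype had overlapping ranges of correlation. In the second slide set, pairs of the same genotype correlated at 0.481 to 0.611 over genes (6 pairs) and pairs of different genotype at 0.486 to 0.571 (9 pairs). In the first set the ranges were 0.406 to 0.64 (2 pairs) and 0.448 to 0.666 (4 pairs). Both ranges lay below the 0.765 between the arrays of LPA1 tumour 4.

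**Figure D1:**
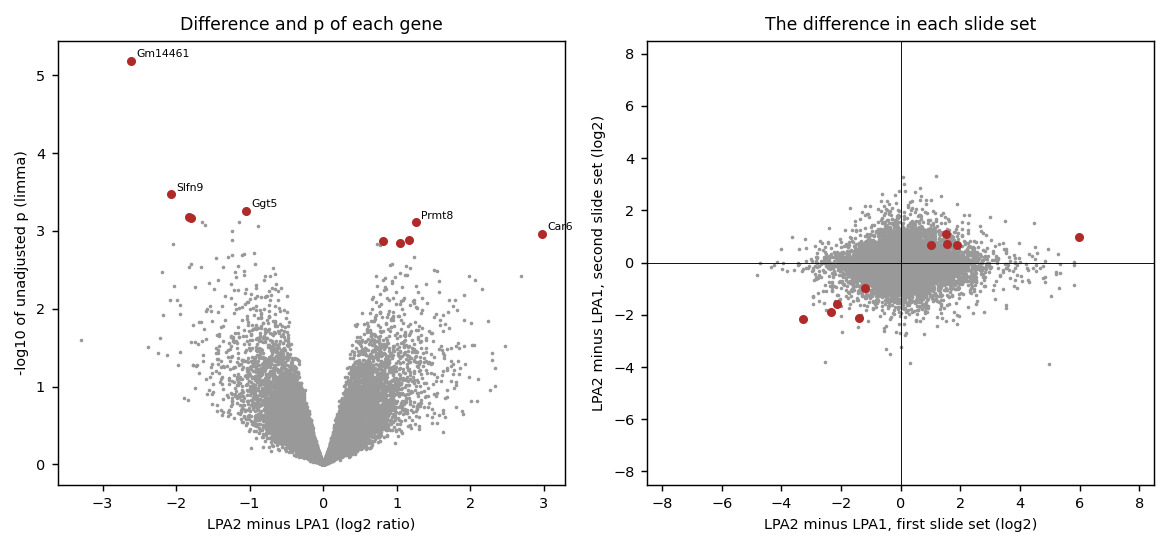
Left, each of 19069 genes by its LPA2 minus LPA1 difference (log2 ratio, x axis) and −log10 of the unadjusted limma p (y axis); right, each gene's difference in the first slide set (x axis) against the second (y axis), both log2. Red points are the 5 genes of smallest p in each direction: Gm14461 stands above the rest at a difference of −2.62, Car6 lies farthest right at 2.97, and the cloud on the right is wide along the first set and has no diagonal.

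The genes of smallest p lower in LPA2 tumours are given here as values, chosen by their p in this comparison, and none was called. Gm14461, a predicted gene, had log2 ratios of 0.81, 2.03, 1.96, 1.72 and 3.75 in LPA1 tumours 1 to 5 and of 0, −0.01, −1.37, −1.50 and 0.07 in LPA2 tumours 1 to 5. Every LPA1 tumour was above every LPA2 tumour. The LPA2 tumours of the second slide set lay at or near a log2 ratio of 0, and 1 of the 5 LPA2 values was exactly 0. The means were 2.05 ± 1.07 (SD, n = 5) and −0.56 ± 0.801 (SD, n = 5), and the difference was −2.62 with a 95% interval of −3.50 to −1.74. The gap between the arrays of LPA1 tumour 4 was large beside that difference, at 0.27 on the first array and 3.16 on the repeat. Without LPA1 tumour 1, the lowest of its group, Gm14461 had an adjusted p of 0.00298 by limma and was the gene called. With the first array alone standing for LPA1 tumour 4, its adjusted p was 0.994.

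Slfn9, a member of the Schlafen family, read 1.09, 4.48, 2.25, 2.43 and 1.87 in the LPA1 tumours and 0.42, 0.33, 0, 0 and 1.02 in the LPA2 tumours. The groups did not overlap, although LPA1 tumour 1 and LPA2 tumour 5 lay close together. LPA2 tumours 3 and 4 held deposited values of exactly 0 for this gene, and Slfn9 and Gm14461 could no longer be tested with such values set to missing. Ggt5, the γ-glutamyl transferase that cleaves leukotriene C4, read 1.48, 0.94, 1.89, 1.4 and 1.37 in the LPA1 tumours and 0.23, 0.51, 0.02, 0.88 and 0.17 in the LPA2 tumours. All LPA2 tumours were lower, with a mean difference of −1.06 (SE 0.253), and the 2 Ggt5 features gave differences of −1.41 and −0.70.

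Vtcn1 and Il12rb1 followed in order of p. Vtcn1 (B7-H4), an inhibitory ligand of T cells, read 2.92, 1.62, 1.70, 1.69 and 1.45 in the LPA1 tumours and 0.21, 0.45, 1.49, −0.92 and −0.99 in the LPA2 tumours. LPA2 tumour 3 lay within the LPA1 range and the other LPA2 tumours below it, and the arrays of LPA1 tumour 4 read 0.18 and 3.21. Il12rb1, a receptor chain for interleukins 12 and 23, read 0.09, 2.92, 1.79, 3.01 and 1.22 in the LPA1 tumours against −1.01, 0.45, 0.03, 0.46 and 0.08 in the LPA2 tumours. Here LPA1 tumour 1 fell within the LPA2 range.

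The other lower genes of smallest p were Fam111a, a protease that acts at replication forks, Erfe, which encodes the iron-regulating hormone erythroferrone, the tetraspanin Tspan10, the predicted gene Gm11696 and Spdl1, which brings dynein to kinetochores. Their differences ranged from −1.64 for Erfe to −0.88 for Gm11696, each with an adjusted p of 0.972 by limma. For Fam111a the LPA1 tumours spanned 0.06 to 1.5 with a median of 0.22 and the LPA2 tumours −0.94 to −0.06 with a median of −0.55, so that the groups did not overlap. Its difference was −2.21 in the first slide set and −0.44 in the second.

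Among the genes of smallest p higher in LPA2 tumours, Prmt8, an arginine methyltransferase best known from brain, had the smallest p. It read −1.77, −1.62, −1.65, −1.16 and −0.42 in the LPA1 tumours and −0.14, −0.07, 0.19, 0 and −0.29 in the LPA2 tumours. The LPA2 tumours were near a log2 ratio of 0, with 1 value of exactly 0, and all above the LPA1 tumours. The difference was 1.26 (95% interval 0.60 to 1.92). The arrays of LPA1 tumour 4 read 0.02 and −2.35 for Prmt8.

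Car6, a secreted carbonic anhydrase found in saliva and milk, had the largest difference of the 20 genes of smallest p. It read −1.87, −1.40, −4.09, −3.17 and −1.62 in the LPA1 tumours and −0.39, −0.46, 4.24, 0.47 and −1.13 in the LPA2 tumours. All LPA2 tumours were higher, and LPA2 tumour 3 alone was well above the reference. The difference was 2.97 (95% interval 1.36 to 4.59), made up of 5.98 in the first slide set and 0.97 in the second.

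Ppif encodes cyclophilin D, which regulates the permeability pore of mitochondria. It read −0.30, −0.79, −0.27, −0.44 and 0.30 in the LPA1 tumours and 0.50, 0.43, 0.76, 0.54 and 0.31 in the LPA2 tumours. All LPA2 tumours were higher, though tumour 5 of either genotype was at nearly the same value. Rexo4, a putative RNA exonuclease, read 0.24, 0.14, 0.38, 0.27 and 0.23 in the LPA1 tumours and 0.87, 0.94, 0.54, 1.14 and 1.63 in the LPA2 tumours. Its groups did not overlap, and the LPA1 tumours were tightly grouped (SD 0.0869, n = 5). Arfip1, which encodes the small GTPase partner arfaptin 1, was higher in every LPA2 tumour (0.43 to 0.99, median 0.58) than in any LPA1 tumour (−0.79 to 0.30, median −0.07).

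Of the other higher genes of smallest p, 1700041M19Rik, Ergic1, Trim16, Lypd2 and Ppp1r37, the last a regulatory subunit of protein phosphatase 1, had differences of 0.94 to 1.23. For Lypd2 the value of LPA2 tumour 1 was missing and the fit used the other 4 LPA2 tumours. 1700041M19Rik was exactly 0 on 7 of the 21 arrays of the series, and LPA1 tumour 4 read −2.20 on one array and 1.45 on the other.

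**Figure D2:**
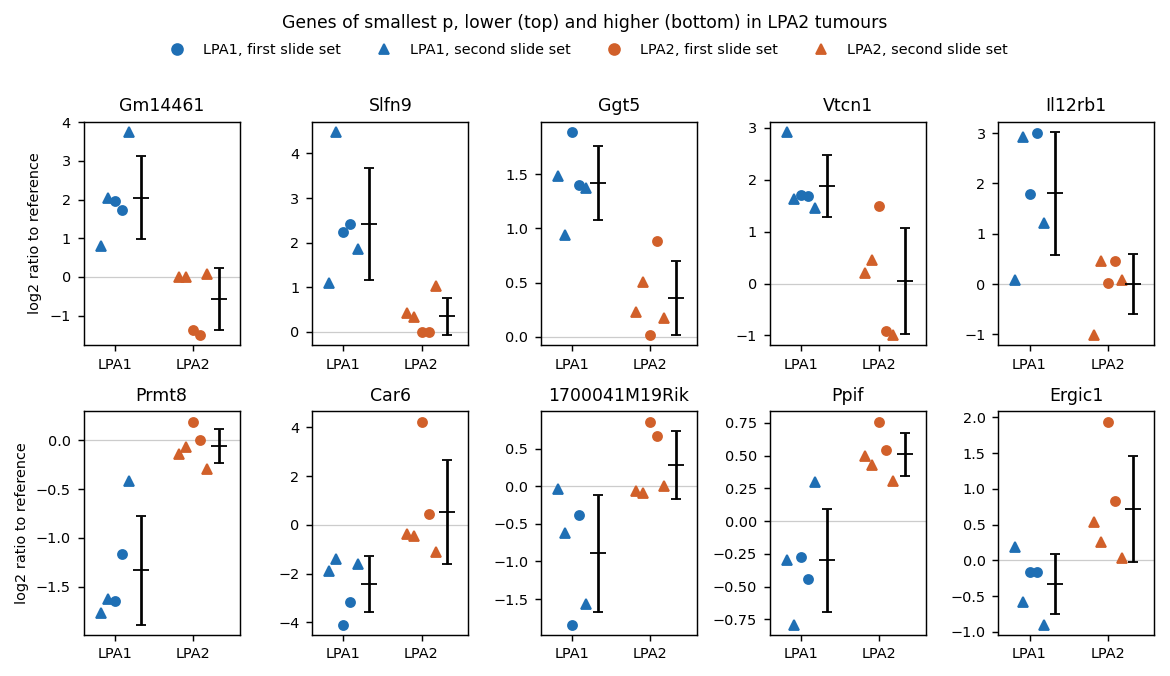
Log2 ratio to the whole-mouse reference (y axis) of the 5 genes of smallest p lower (top) and higher (bottom) in LPA2 tumours, with 1 point per tumour, circles for the first slide set, triangles for the second, and the mean with bars of 1 SD (n = 5). In Gm14461, Slfn9 and Ggt5 all LPA2 tumours lie below all LPA1 tumours, and in Prmt8, Car6 and Ppif all lie above.

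All 5 LPA2 tumours lay on one side of all 5 LPA1 tumours for 128 genes (0.671%), 68 higher (0.357% of those tested) and 60 lower (0.315%). Within both slide sets at once the LPA2 tumours were all above the LPA1 tumours for 202 of 18957 genes (1.07%) and all below for 143 (0.754%). Those with the largest smaller within-set difference were as follows, as values without a test.

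Ccl20, the chemokine that attracts cells through CCR6, read −0.58, 0.31, −0.52, −0.68 and 1.26 in the LPA1 tumours and 2.57, 2.48, 0.65, 2.36 and 1.38 in the LPA2 tumours. LPA1 tumour 5 was above LPA2 tumour 3, which is on other slides, and the difference was 2.11 in the first slide set and 1.81 in the second. The overall difference was 1.93 with a 95% interval of −0.01 to 3.87. Ucp3, a mitochondrial uncoupling protein of muscle and brown fat, was higher by 1.39 (95% interval 0.48 to 2.31), and Flvcr2, a membrane transporter, by 1.58 (0.56 to 2.60). Mfsd6l, Wnt8a, a Wnt ligand, Ankrd35 and Gm36582 had differences of 1.18 to 1.79. In LPA1 tumour 1 Ankrd35 read −4.99, against −1.87 to −0.12 in the other LPA1 tumours.

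Spink8, a Kazal-type protease inhibitor, led the lower side after genes already described. It read 1.54, 2.03, 4.34, 2.51 and 2.17 in the LPA1 tumours and 0.49, 0, 0.02, 1.85 and −0.18 in the LPA2 tumours. Only LPA2 tumour 4 came within the LPA1 range, and the difference was −2.08 (95% interval −3.55 to −0.62). Slc39a8, the zinc and manganese importer ZIP8, differed by −2.12, the chloride channel gene Clic6 by −1.59 and the ubiquitin ligase gene Lrsam1 by −1.25. The means of LPA3 and ATX tumours for Spink8 were 0.22 and −0.31, nearer to the LPA2 mean of 0.43 than to the LPA1 mean of 2.52. For Gm14461 they were 0.25 and 0.46 and for Vtcn1 0.32 and 0.30, also nearer to the LPA2 mean. For Slfn9 they were 1.48 and 1.69, nearer to the LPA1 mean of 2.42, and for Ggt5 the ATX mean of 1.35 lay near the LPA1 mean of 1.42 and the LPA3 mean was 0.02. No adjustment for the slide set was made in these means. The ATX tumours were all in the first slide set, as were the LPA3 tumours other than tumour 4. The LPA1 and LPA2 means draw on both slide sets, so genotype and slide set cannot be told apart in these positions. They were not tested.

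The genes of the LPA receptors did not separate the genotypes. Lpar1, which encodes LPA1, read 0.30, −0.20, −2.89, −0.14 and 0.01 in the LPA1 tumours and −0.31, −0.65, −1.71, −1.36 and −0.20 in the LPA2 tumours. Its difference was −0.26, with a 95% interval of −1.24 to 0.71 and an adjusted p of 0.985 by limma. LPA1 tumour 3 was the lowest of all 10, and without LPA1 tumour 4 the sign of the difference turned (0.13). Lpar2, which encodes LPA2, read 1.72, 0.36, 1.10, 0.18 and −0.17 in the LPA1 tumours and 0.97, −0.01, 0.38, 1.16 and 0.40 in the LPA2 tumours. The difference was −0.06 with a 95% interval of −1.0 to 0.89 (adjusted p = 0.995 by limma), and it turned positive without LPA1 tumour 1 (0.26). The sources used here do not tell whether these features detect RNA from the transgenes, so neither gene checks the genotype labels.

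Of the other LPA receptors, Lpar4 had the smallest p. Lpar4, a receptor of the purinergic family that binds LPA, read −1.80, −2.12, −2.28, −1.90 and −1.91 in the LPA1 tumours and −1.15, −1.36, −1.90, −1.49 and −1.40 in the LPA2 tumours. All values were below the reference, and the LPA2 tumours were higher within both slide sets. In the first set this was by a margin lost on rounding, since LPA1 tumour 4 and LPA2 tumour 3 were both at −1.90. LPA1 tumour 1, of the second set, was above LPA2 tumour 3 at −1.80. The difference of 0.54 had a 95% interval from just below 0 to 1.08 and an adjusted p of 0.972 by limma, and the 2 Lpar4 features gave 0.01 and 1.07. Lpar3 and Lpar6 differed by 0.14 (95% interval −1.02 to 1.30) and −0.12 (−0.47 to 0.22). Lpar3 had opposite signs in the slide sets, 0.85 in the first and −0.34 in the second. Over the 10 measured receptors for LPA and sphingosine 1-phosphate, 2 were higher in LPA2 tumours and 8 lower, the median difference was −0.12 and 0 were called. Lpar5 and Enpp2, the gene of autotaxin, were not analysed here.

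Enzymes that make and remove LPA and sphingosine 1-phosphate (17 measured) had a median difference of −0.04. Liph, a phospholipase that makes LPA from phosphatidic acid, spanned −1.46 to 1.11 (median 0.29) in the LPA1 tumours and 0.41 to 2.63 (median 1.08) in the LPA2 tumours. Its difference of 2.86 in the first slide set was not matched in the second, where it was −0.04. Plpp2, a lipid phosphatase that degrades LPA, spanned 0.14 to 4.06 in the LPA1 tumours and 0.19 to 1.26 in the LPA2 tumours, with a difference near 0 in the first set and of −1.94 in the second.

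Protein partners of the LPA receptors (8 measured) had 6 lower members and a median difference of −0.14. Arhgef1, a guanine nucleotide exchange factor, had the largest difference of that list at −2.25, and it rested on LPA1 tumour 1 at 7.12 and LPA2 tumour 1 at −2.82. The other LPA1 tumours were at 0.49 to 1.32 and the other LPA2 tumours at −0.56 to 1.37, which overlap. The 21 G protein subunits had 11 higher members and a median of 0.01. The 12 RGS proteins, which switch off G protein signals, had 5 higher members and a median of −0.16.

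Rgs10 and Rgs19, both of which act on Gi and are abundant in leukocytes, were the RGS genes with the smallest p. Rgs10 read 0.71, 0.56, 1.15, 2.05 and 0.77 in the LPA1 tumours and −0.09, −0.21, −0.51, 0.31 and 0.21 in the LPA2 tumours. The groups did not overlap, and the difference was −1.11 (95% interval −1.75 to −0.46, unadjusted p = 0.00203 and adjusted p = 0.972 by limma). Rgs19 differed by −0.79 (95% interval −1.29 to −0.29), with LPA1 tumour 2 at 0.44 within the LPA2 range of −0.25 to 0.56.

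Lists of genes downstream of the receptors had medians near that of all genes. Genes responsive to YAP and SRF had 9 of 17 members higher and a median of 0.02. Immediate early genes had 5 of 19 higher and a median of −0.15, and ErbB receptors and ligands 9 of 12 and 0.13. Feedback genes of the MAP kinase pathway had 8 of 10 higher and a median of 0.14, against 51.6% and 0.01 over all genes. Among them Dusp4, a phosphatase that inactivates ERK, read −0.22, −0.89, −0.80, 0.93 and 0.71 in the LPA1 tumours and 1.68, 1.17, −0.51, 1.71 and 0.76 in the LPA2 tumours. LPA2 tumours 1, 2 and 4 were above every LPA1 tumour and the other LPA2 tumours within their range, and the difference was 1.02 (95% interval 0.07 to 1.97). Phlda1, another gene that ERK induces, differed by 1.09, at 2.30 in the first slide set and 0.29 in the second.

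Cell type lists follow, and in whole tumours fewer cells of a type and less RNA per cell cannot be told apart. No member of any list was called, the background being 0% of all genes, so counts of members by sign stand beside the 51.6% of all genes above 0. Members of a list vary together from tumour to tumour and are not separate observations.

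All 17 squamous differentiation genes were higher in LPA2 tumours, with a median difference of 0.74, and none was called. These genes belong to the cornifying layers of stratified epithelium, and squamous areas occur in some mammary tumours. The list median per tumour was −0.73, −0.57, −2.94, −2.59 and −1.07 in the LPA1 tumours and −0.64, −0.70, −1.62, −1.56 and 0.05 in the LPA2 tumours. In the first slide set both LPA2 tumours were above both LPA1 tumours, while in the second only LPA2 tumour 5 stood above the LPA1 tumours. The median difference was 1.03 in the first set (17 of 17 higher) and 0.55 in the second (15 of 17), and it stayed between 0.55 and 0.81 when any of the 10 tumours was left out.

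Dsc1, a desmosomal cadherin of the upper epidermis, had the largest difference of the list. It read −1.46, −2.23, −5.40, −2.88 and −2.27 in the LPA1 tumours and −1.79, −1.88, −2.78, 0 and 1.08 in the LPA2 tumours, for a difference of 1.77 (95% interval −0.01 to 3.56). The second-set LPA2 tumours 1 and 2 lay inside the LPA1 range. Of the 10 LPA2 feature values of Dsc1, 2 were exactly 0, and with exact zeros set to missing its difference was 1.31, the same as that of Klk7. Sbsn, a keratinocyte secreted protein, was higher within both sets, at −1.12, −0.99, −3.77, −3.30 and −1.21 in the LPA1 tumours and −0.64, −0.70, −2.40, −1.16 and 0.07 in the LPA2 tumours (difference 1.11, 95% interval 0.17 to 2.05). Klk7, a protease that sheds cornified cells, differed by 1.31, and Dsg1a, the partner of Dsc1 in desmosomes, by 0.84.

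Basal and myoepithelial markers leaned the same way, with 13 of 15 higher and a median difference of 0.41. The tumour medians overlapped, at −2.31 to 0.09 in the LPA1 tumours and −0.80 to 0.31 in the LPA2 tumours, and LPA1 tumour 3 was the lowest. Without LPA1 tumour 3 the median difference was 0.26. Mylk, the myosin light chain kinase of contractile cells, differed by 0.78 (95% interval 0.08 to 1.48), Myh11, smooth muscle myosin, by 0.83 and Cnn1, calponin, by 0.81. These 3 differed by 1.61, 1.71 and 2.25 in the first slide set and by 0.23, 0.25 and −0.15 in the second.

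Epithelial junction genes had 16 of 18 members higher and a median difference of 0.31. By slide set, 11 members were higher in the first and 15 in the second. Only 8 (44.4%) had the same sign in both sets, against 50.3% of all genes. The LPA2 tumours were tightly grouped at list medians of 0.71 to 0.89, whereas the LPA1 tumours ran from −0.51 in tumour 4 to 1.44 in tumour 3. Without LPA1 tumour 4 the median difference was 0.08, and without LPA1 tumour 3 it was 0.65. Pkp3, a desmosomal plaque protein, read 0.02, 0.82, −0.20, −0.49 and 0.44 in the LPA1 tumours and 1.25, 1.13, 0.77, 0.99 and 1.04 in the LPA2 tumours. LPA2 tumour 3 was just below LPA1 tumour 2, which lies on other slides, and the difference was 0.92 (95% interval 0.21 to 1.63). F11r, the tight junction protein JAM-A, differed by 0.87, with LPA2 tumour 4 at 3.19 and the other LPA2 tumours at 0.46 to 0.99.

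Luminal markers gave a median difference of 0.28 with 10 of 17 higher (−0.13 without LPA1 tumour 4), and the members went both ways. Aldh1a3, a retinoic acid-forming enzyme of luminal progenitors, spanned 0.50 to 4.67 (median 1.76) in the LPA1 tumours and −0.85 to 1.20 (median 0.05) in the LPA2 tumours, a difference of −1.80 (95% interval −3.37 to −0.23). Krt19, a luminal keratin, was 4.00 in LPA1 tumour 3 and −1.53 in LPA2 tumour 3 and between 0.72 and 1.48 in the other 8 tumours. Spdef, a transcription factor of luminal cells, and Krt7, another luminal keratin, went the other way, by 1.12 (95% interval −0.73 to 2.96) and 0.98 (−0.24 to 2.21). Spdef was 4.42 in LPA2 tumour 3 and −2.01 to 0.73 in the other 9 tumours, and its difference without LPA2 tumour 3 was 0.07. Both genes were higher in LPA2 tumours in the first slide set and lower in the second. Mesenchymal transition genes had 4 of 15 higher and a median of −0.14.

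**Figure D3:**
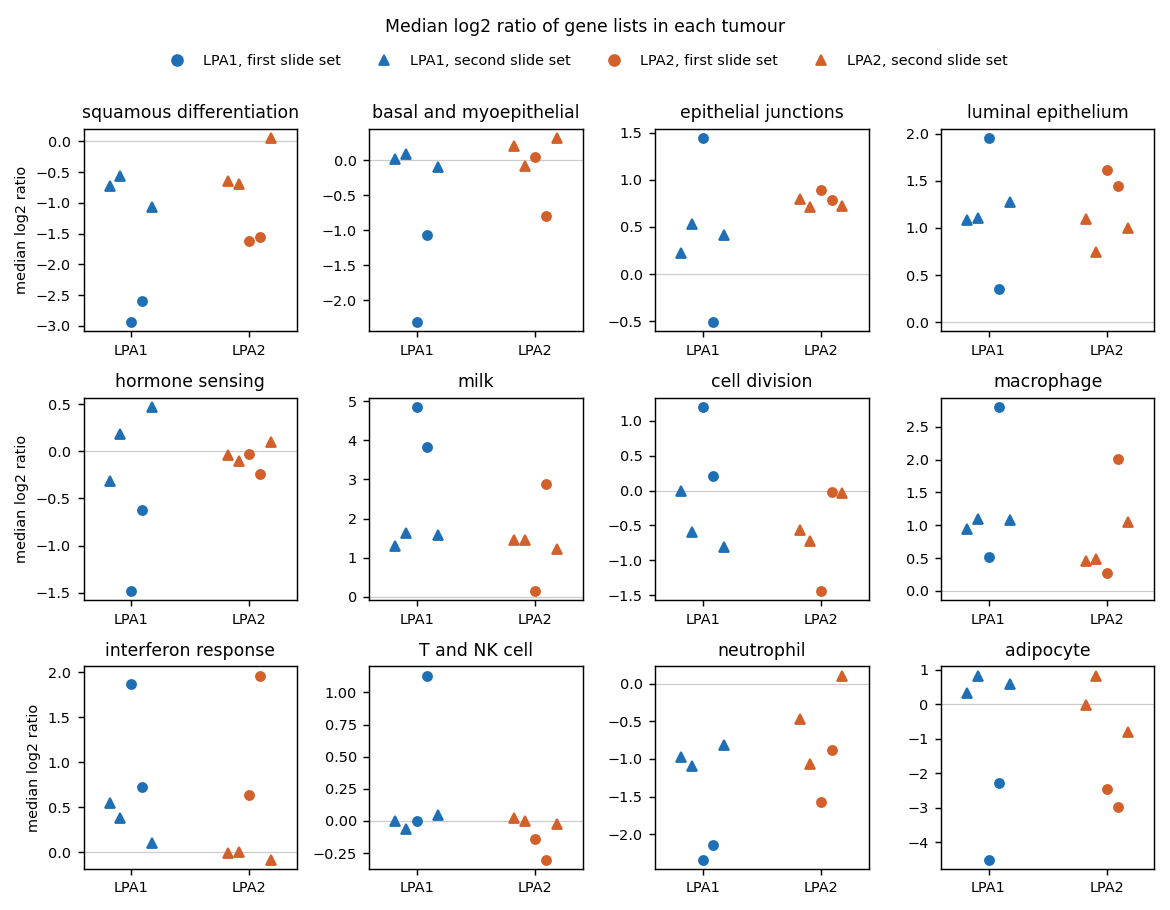
Median log2 ratio to the reference (y axis) over the measured members of 12 gene lists, with 1 point per tumour, blue for LPA1 and orange for LPA2, circles for the first slide set and triangles for the second. The squamous, milk and neutrophil medians differ more between genotypes in the first slide set than in the second, and LPA1 tumour 4 is the highest point of the macrophage and T and NK cell lists.

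Milk genes were lower in LPA2 tumours for 13 of 15 members, with the largest median difference of any list, −1.12, and again none was called. Csn2, β-casein, read 2.19, 2.48, 9.07, 8.27 and 1.71 in the LPA1 tumours and 1.84, 1.97, 0.84, 7.83 and 2.03 in the LPA2 tumours. In the first slide set both LPA1 tumours and LPA2 tumour 4 were high and LPA2 tumour 3 was low, while the 6 tumours of the second set spanned 1.71 to 2.48. The difference of −1.84 had a 95% interval of −4.40 to 0.72. Csn1s2a, Csn3 and Muc15, a mucin of milk fat globules, differed by −1.90, −1.42 and −1.71, by −4.72, −3.44 and −3.82 in the first set and by −0.01, −0.08 and −0.31 in the second. The list's median difference was −2.93 in the first set and −0.08 in the second, and −0.50 without LPA2 tumour 3. Fatty acid synthesis genes had 4 of 15 higher and a median of −0.30.

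Hormone sensing genes gave a median difference of 0.23 (5 of 9 higher) that was 0.75 in the first slide set and −0.66 in the second, and −0.38 without LPA2 tumour 3. Esr1, the estrogen receptor, had the smallest p of the list. It read 1.46, 1.72, 2.21, 1.80 and 1.65 in the LPA1 tumours and 1.42, 1.55, −0.25, −0.21 and 0.61 in the LPA2 tumours. The LPA1 tumours were all well above the reference, as were LPA2 tumours 1 and 2, whereas LPA2 tumours 3 and 4 were below it. The difference was −1.14 (95% interval −1.97 to −0.31, adjusted p = 0.972 by limma), with −2.23 in the first set and −0.41 in the second, and 10 of the 11 Esr1 features gave a negative difference. The Esr1 means of the ATX and LPA3 tumours, 2.87 ± 0.867 and −0.13 ± 0.486 (SD, n = 5 each), lay on either side of both. These means were not adjusted for the slide set, over which ATX and LPA3 tumours are spread differently from LPA1 and LPA2 tumours. Prom1, a surface marker of hormone-sensing luminal cells, ran the other way at 2.05 (95% interval 0.23 to 3.86), with 4.56 in the first set and 0.37 in the second. Tnfsf11, the paracrine signal RANKL, was 1.58 and 2.06 in LPA2 tumours 2 and 1 and −1.07 to 1.14 in the others, a difference of 0.68 with opposite signs in the slide sets.

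All 23 cell division genes were lower in LPA2 tumours, with a median difference of −0.58, none called, and nearly all of it lay in the first slide set. The list median was 0, −0.59, 1.20, 0.21 and −0.81 in LPA1 tumours 1 to 5 and −0.57, −0.72, −1.44, −0.02 and −0.03 in LPA2 tumours 1 to 5. LPA1 tumour 3 was the highest and LPA2 tumour 3 the lowest, both in the first set, and the other 8 tumours overlapped. The median difference was −1.44 in the first set (0 of 23 higher) and 0.05 in the second (15 of 23 higher), and without LPA2 tumour 3 it was −0.22. With all arrays scaled to the same median absolute deviation it was −0.35. Bub1, a spindle checkpoint kinase, differed by −1.17 (−2.75 in the first set, −0.12 in the second), Aurkb, aurora kinase B, by −1.05 (−2.38 and −0.16) and Mcm6, a subunit of the replicative helicase, by −1.0 (−2.51 and 0.01). Cyclins and Myc genes had 5 of 14 higher and a median of −0.17.

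Macrophage genes were lower in LPA2 tumours for 14 of 14 members, although Aif1, named after its values were seen, was so only in the third decimal, with a median difference of −0.55 that was similar in the slide sets (−0.45 in the first and −0.44 in the second). The list median was 0.95, 1.09, 0.52, 2.80 and 1.08 in the LPA1 tumours and 0.45, 0.49, 0.27, 2.01 and 1.05 in the LPA2 tumours. LPA1 tumour 4 was the highest and LPA2 tumour 4 the next, so the genotypes overlapped, and the median difference was −0.24 without LPA1 tumour 4 and −0.83 without LPA1 tumour 3. No member was called. Adgre1, which encodes the macrophage antigen F4/80, read 0.36, 0.98, 0.19, 1.52 and 0.40 in the LPA1 tumours and −0.37, −0.16, −0.24, −0.60 and 0.05 in the LPA2 tumours. Its groups did not overlap, and the difference was −0.95 (95% interval −1.65 to −0.26, unadjusted p = 0.00967 and adjusted p = 0.972 by limma). Its 2 features gave −1.02 and −0.89. Mrc1, the mannose receptor, Msr1, a scavenger receptor, and Lyz2, lysozyme, differed by −0.81, −0.71 and −0.63, each with an interval that includes 0.

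T and NK cell and interferon response lists also had more lower than higher members, and the B and plasma cell list had as many of either. T and NK cell genes had 2 of 17 higher and a median of −0.28, which was −0.06 without LPA1 tumour 4. That tumour had a list median of 1.13, against −0.06 to 0.05 in the other LPA1 tumours and −0.30 to 0.02 in the LPA2 tumours. Icos, a costimulatory receptor of T cells, and Nkg7, a granule protein of killer cells, differed by −0.89 and −0.69. Interferon response genes had 5 of 23 higher and a median of −0.29 (−0.07 without LPA2 tumour 3), and the tumour medians ran from 0.10 to 1.87 in the LPA1 tumours and −0.08 to 1.96 in the LPA2 tumours. Oas2 and Oas1a, sensors of viral RNA that interferon induces, differed by −0.98 and −0.68, and the 2 Oas2 features gave −1.88 and −0.08. B and plasma cell genes had 5 of 10 higher and a median of −0.01, and class II antigen presentation genes had 3 of 10 and −0.04.

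Neutrophil genes had the opposite sign, with 8 of 12 higher in LPA2 tumours and a median difference of 0.77 (1.16 in the first slide set and 0.25 in the second). The list median ran from −2.34 to −0.82 in the LPA1 tumours and from −1.57 to 0.11 in the LPA2 tumours, overlapping. Elane, neutrophil elastase, differed by 1.12 (95% interval 0.19 to 2.05) with 2.27 in the first set and 0.35 in the second. It was exactly 0 on 2 of 6 LPA1 arrays and 1 of 5 LPA2 arrays and could not be tested with such values set to missing. Camp, the antimicrobial peptide precursor, S100a9, a subunit of calprotectin, and Cxcr2, the receptor through which neutrophils migrate, differed by 1.14, 1.05 and 1.23, each with an interval that includes 0. The lower members of the list, named after their values were seen, were Csf3r, Ltf, Lcn2 and Mmp8. They differed by −0.24, −0.23, −0.10 and −0.08. Inflammatory and angiogenic mediators had 7 of 18 higher and a median of −0.27, and their 4 members of largest difference went both ways. Csf3, the growth factor of granulocytes, and Cxcl1, a ligand of CXCR2, differed by 1.37 and 1.11. Ptgs2, the inducible cyclooxygenase, and Ccl2, a chemokine for monocytes, differed by −1.16 and −0.88. Csf3 was exactly 0 on 4 of the 6 LPA1 arrays.

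**Figure D4:**
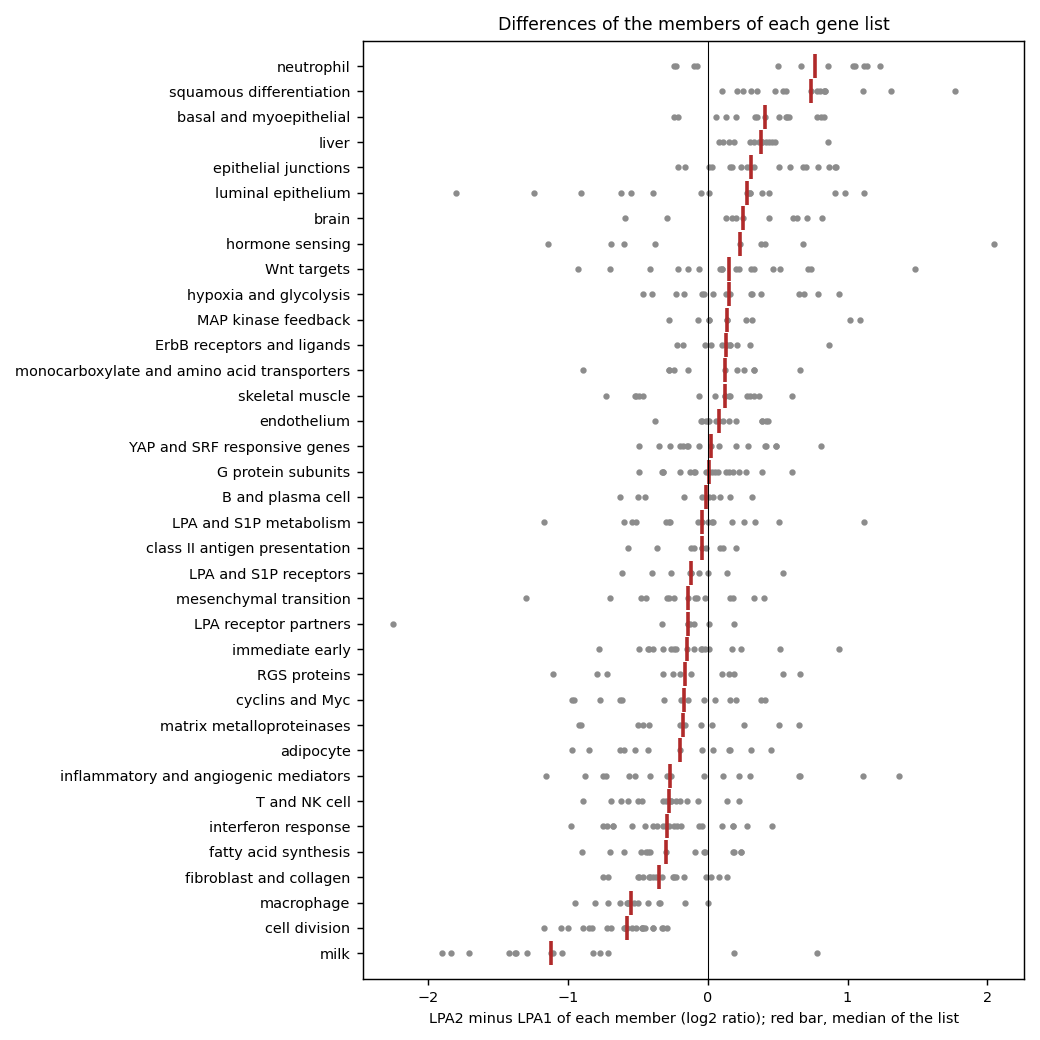
LPA2 minus LPA1 difference (log2 ratio, x axis) of each measured member (grey point) of 36 gene lists (y axis), ordered by the list median (red bar). The medians run from −1.12 for milk to 0.77 for neutrophil genes, and the squamous and liver lists lie wholly above 0 and the cell division list wholly below.

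Stromal lists showed small medians. Fibroblast and collagen genes had 3 of 18 higher and a median of −0.35 (0.13 without LPA1 tumour 4), endothelial genes 11 of 15 and 0.08, and matrix metalloproteinases 4 of 12 and −0.18. Adipocyte genes had a median difference of −0.20, at 0.65 in the first slide set and −0.67 in the second, and skeletal muscle genes of 0.12, at 0.76 and −0.30. Liver genes were higher for 14 of 14 members with a median of 0.38, although mammary tumours do not make these transcripts as liver does. Their difference was 0.92 in the first set, 0.06 in the second and 0.18 without LPA2 tumour 3, Apoa1 and Apob, apolipoproteins of liver and intestine, differed by 0.48 and 0.86, and 0 members were called. Brain genes gave 9 of 11 higher and a median of 0.25. The SD of log2 ratios on the first-set arrays was 1.253 to 1.432 for LPA1 tumours and 1.232 to 1.293 for LPA2 tumours. With all arrays scaled to the same median absolute deviation the liver median was 0.09 and the squamous median 0.64. The cause of either difference was not tested, and scaled medians of the milk and neutrophil lists are not given here.

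The remaining lists were Wnt targets, with 12 of 18 higher and a median of 0.15, hypoxia and glycolysis, with 10 of 16 and 0.15, and monocarboxylate and amino acid transporters, with 6 of 11 and 0.12. Slc16a9, a carnitine and creatine transporter of the last list, read 0.90, 1.11, 1.92, 0.57 and 0.99 in the LPA1 tumours and 0.61, 0.97, 0.32, −0.94 and 0.10 in the LPA2 tumours. The groups overlapped through LPA2 tumours 1 and 2, and the difference was −0.89 (95% interval −1.60 to −0.17).

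**Figure D5:**
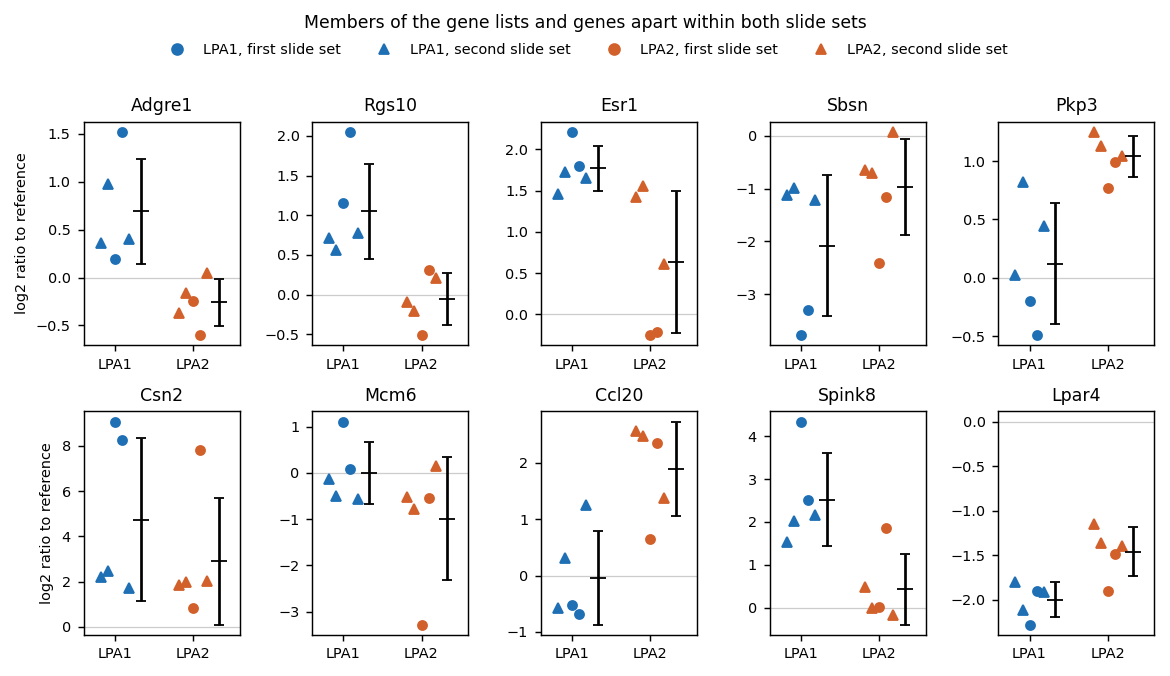
Log2 ratio to the whole-mouse reference (y axis) of 10 genes, with 1 point per tumour, circles for the first slide set, triangles for the second, and the mean with bars of 1 SD (n = 5). All LPA2 tumours lie below all LPA1 tumours in Adgre1 and Rgs10, while in Csn2 and Mcm6 the genotypes overlap and differ mainly through tumours of the first slide set.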

How the data were processed

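The data are 11 Agilent 2-colour arrays of 5 LPA1 and 5 LPA2 tumours, out of 21 arrays of 20 tumours. Per the labels, a Qiagen RNeasy kit gave the RNA, and tumour RNA carried Cy5 and whole-mouse RNA Cy3 on every array, so dye and sample cannot be told apart. The authors deposited log2 ratios, 1 per feature and array, each array with a median of 0. Scanner processing, background correction and normalization were not given in the sources used here, nor was the log base, for which 2 was assumed because values ran from −11.437 to 9.86. Without a column of signal over background, dim features could not be filtered. It was also not given whether a deposited value of exactly 0 is a measured ratio.

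Of 45220 features, 33653 had 1 gene symbol in the platform annotation, 56 several and 11511 none. Features of a gene were averaged (19087 genes), and 19069 genes with values in at least 4 tumours of each genotype were tested. On the 11 arrays 525 values were missing. The 20 tumours entered 1 limma 3.58.1 fit (lmFit and eBayes, R 4.3.3) with genotype and slide set as terms and 15 residual degrees of freedom, and a call needed an adjusted p under 0.05 (Benjamini-Hochberg, adjusted across every gene tested). The 3 to 2 split over the slide sets is the same on both sides, so the slide set changes the spread, not the difference. P-values are two-sided and measure the spread between mice. Summaries used Python 3.11.15, numpy 2.4.6 and pandas 2.3.3, and figures matplotlib 3.10.9. The fit was tested on simulated data.

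The members, the 36 gene lists (556 entries, 532 measured) and the rule for naming genes were chosen with earlier results of these data known. With under 10 calls, this rule named, per direction, the 10 genes of smallest p, the measured LPA receptors, up to 4 members of largest difference per list, and the 8 genes in each direction apart within both slide sets whose smaller within-set difference is largest, in all 177 genes. Of these, 85 were followed under the alternatives.

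Mouse numbers 1 to 5 occur in both groups. Same-numbered tumours deviated together from their group means (r = 0.103 to 0.318 over genes). Equal numbers also lie in the same slide set, and with deviations taken within slide sets the correlations were −0.028 to 0.1. In the first set the deviations of tumours 3 and 4 of a genotype are equal and opposite. Both numbers therefore gave the same correlation, and these values cannot tell whether a number pairs animals. The cause was not tested. The labels do not say that a number marks a shared litter or day. The alternatives changed the slide terms, the tumours, the scaling, exact zeros, the probe summary, weights, moderation and filters. Testing all features, with or without a symbol, was chosen after seeing the data.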

Additional observations from a re-analysis of the deposited data

Results flagged for a closer look

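Of 241 groups of 5 tumours (1 gene or list median in 1 genotype), 31 had a tumour farther from the others than Dixon's critical value of 0.71 allows. That value is set for about 1 in 20 when all 5 values come from the same distribution. These groups mix slide sets of different spread, many genes were named for their differences, and genes and lists vary together. The count therefore cannot be read against that rate. Among single genes in LPA1 tumours, Vtcn1 was 2.92 and Arhgef1 7.12 in tumour 1. Tumour 3 stood apart for Lpar1 at −2.89, Dsg1a at −3.46 and Krt19 at 4.00. Tumour 4 did so for Gm36582 at −1.81 and Msr1 at 2.50, and tumour 5 for Lrsam1 at 2.06 and Csf3 at −2.29. In LPA2 tumours, tumour 3 stood apart for Wnt8a at 1.09, Rgs19 at −0.25, Mcm6 at −3.28, Muc15 at −0.99, Spdef at 4.42 and Krt19 at −1.53. Tumour 4 did so for F11r at 3.19, Csn2 at 7.83, Csn3 at 4.32 and Oas1a at 2.40.

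For list medians, LPA1 tumour 3 lay below the other LPA1 tumours in LPA and S1P receptors at −0.91, LPA and S1P metabolism at −0.52, RGS proteins at −1.51, YAP and SRF responsive genes at −1.37, Wnt targets at −2.07 and endothelium at −1.85. LPA1 tumour 4 lay above the others in inflammatory and angiogenic mediators at 1.43, class II antigen presentation at 3.03, macrophage genes at 2.80 and T and NK cell genes at 1.13. LPA2 tumour 3 was low in LPA and S1P metabolism at −0.22 and high in B and plasma cell genes at 1.20. All tumours that stood apart in a list median were of the first slide set.

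Between the slide sets, the LPA2 minus LPA1 difference itself differed for 1 gene, Cftr, the chloride channel of secretory epithelia, which was picked out after its values were seen. In a limma fit of the 10 tumours with an interaction term, the second-set difference minus the first-set difference of Cftr was −5.63 (adjusted p = 0.00406), and 1497 genes (7.85%) had an unadjusted p under 0.05. Cftr read −2.82 and −2.31 in LPA1 tumours 3 and 4 against 2.48 and 2.80 in LPA2 tumours 3 and 4. On the second slide set it read −0.95, −1.01 and −1.20 in LPA1 tumours 1, 2 and 5 and −1.73, −1.29 and −1.43 in LPA2 tumours 1, 2 and 5.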

How the results depend on the processing

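The count of called genes was 0 in 27 of 28 alternatives, and leaving out single tumours gave 0 to 1. The exception was leaving out LPA1 replicate 1, with 1 gene called, lower in LPA2 (Gm14461, adjusted p = 0.00298 by limma). The smallest adjusted p in the other alternatives ran from 0.0576 (first slide set alone, Cftr) to 1 (array weights), and genes at an unadjusted p under 0.05 numbered 469 with array weights and 1544 in the first slide set alone, against 844. With a replicate block on the mouse number, 0 genes were called and the smallest adjusted p was 0.892, so pairing the mice changed no call. The directions of 22 of 2191 gene values turned, none of a called gene, and the cause was not tested. Leaving out single tumours gave −0.67 to 0.13 for Lpar1, −0.24 to 0.26 for Lpar2 and −0.09 to 0.33 for Lpar3. Lpar2 became 0.13 in the first slide set alone, 0.26 and 0.03 without LPA1 replicates 1 and 3, 0.07 and 0.05 without LPA2 replicates 2 and 3 and 0.06 with array weights. Lpar3 became −0.29 with the slide as a block, −0.34 in the second slide set alone, −0.09 without LPA1 replicate 3 and with quantile normalization, −0.02 without LPA2 replicate 4, −0.05 with arrays scaled to 1 spread and −0.01 with array weights. Lpar1 became 0.13 without LPA1 replicate 4. In the second slide set alone Lpar6 became 0.03, Cnn1 −0.15, Mcm6 0.01, Liph −0.04, Spdef −0.68 (−0.02 with array weights) and Krt7 −0.18, and in the first alone Tnfsf11 became −1.13. Over 26 alternatives the squamous median stayed between 0.35 and 1.03 and the macrophage median between −0.83 and −0.24. The files give no signal over background, so dim features could not be judged. Differences between arrays of the same mouse could be seen for LPA1 mouse 4 only.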
